A study of Mus musculus with 6 samples.

Results

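Abt1, the AAA+ ATPases Ruvbl1 and Ruvbl2, and the 6 subunits of the RNA polymerase III factor TFIIIC (Gtf3c1 to Gtf3c6) encode proteins that work with Ighmbp2 or belong to complexes it has been found with. They were taken by name and make 9 of the 39174 genes in each table. Their transcripts were read by RNA-seq of 6 primary motoneuron cultures of CD-1 mice, 3 Nmd-/- and 3 Nmd+/+. The study concerns a motor neuron disease called SMARD1 and asks how loss of Ighmbp2 affects motoneurons. Nmd names the neuromuscular degeneration mutation of Ighmbp2, and the labels say nothing further on the allele or on the age at which cultures were made. Whether replicates are separate animals or cultures is nowhere labelled, and the p-values reflect library-to-library spread that can be technical.

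Ighmbp2 is a helicase that unwinds RNA and DNA and is found on ribosomes. Abt1, Ruvbl1, Ruvbl2 and the largest TFIIIC subunit have been reported to bind it, and tRNAs have been found in the same complexes. TFIIIC recognises the promoter elements inside tRNA genes and brings the initiation factor TFIIIB and then RNA polymerase III to them. Ruvbl1 and Ruvbl2 form a ring that helps to assemble large complexes, among them chromatin remodellers and the particles that carry small nucleolar RNAs. In yeast, the relative of Abt1 acts in the processing of ribosomal RNA, and mouse Abt1 was named for its binding to the TATA-binding protein. The Abt1 gene lies in a part of chromosome 13 that has been linked to milder disease in nmd mice.

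Ighmbp2 itself stood at 0.876, 0.788 and 0.598 FPKM (fragments scaled to transcript length and to the library's total) in Nmd-/- replicates 1, 2 and 3, against 1.44, 1.30 and 1.09 FPKM in the same replicates of Nmd+/+. Every Nmd-/- library lay below every Nmd+/+ library, a pattern that 0.91% of all tested genes had. The ratio of the mean FPKM was 0.590. The difference was -0.38 on the log2(FPKM + 1) scale (SE 0.14), and -0.377, -0.365 and -0.390 within replicate numbers 1, 2 and 3. It had an adjusted p of 0.9997 and an unadjusted p of 0.0294 in limma, so it did not pass the threshold over all genes. The mean of Ighmbp2 over the 6 libraries was 1.02 FPKM, just above the filter of 1 FPKM. All 3 Nmd-/- libraries were below 1 FPKM, so the gene entered the test only through Nmd+/+. The p-values given for it are therefore a description and no support for a difference. With replicate number as a block, limma gave an unadjusted p of 0.0107 and an adjusted p of 0.944. An exact permutation test gave p = 0.1, the smallest that 3 against 3 libraries allow. The gene overlaps Mrpl21 on the other strand by 117 bases, and the sources used here do not say whether strand was used in counting.

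The libraries held the equivalent of 15381970 to 23072408 fragments, as judged from the width of the deposited intervals, and between 14474 and 14645 genes at 1 FPKM or more. Of the defining motoneuron markers, Chat reached at most 0.0692 FPKM and Mnx1 was listed at 0 in all 3 Nmd-/- libraries and reached at most 0.0247 FPKM in Nmd+/+. The 10 motoneuron markers with a value summed to 17.0 to 29.6 FPKM in Nmd-/- and 19.0 to 35.0 FPKM in Nmd+/+. Most of each sum came from the 4 that could be tested, Isl1, Nefh, Ret and Gfra1. These 4 were all lower by their means in Nmd-/-, with none past the test. Of the markers too low to be tested, Chat and Isl2 were higher by their means in Nmd-/-, and Slc5a7, Mnx1, Lhx3 and Prph lower. Of the other spinal neuron markers, 8 of 10 were lower by their means in Nmd-/- and none was past the test. Their sums were 143 to 271 FPKM in Nmd-/- and 130.2 to 287 FPKM in Nmd+/+. Among all 14611 tested genes, 6422 were lower in Nmd-/-. The 10 markers of radial glia and astrocytes split 5 and 5 and summed to 4054 to 5029 FPKM in Nmd-/- and 3190 to 4381 FPKM in Nmd+/+, most of it from Vim. Replicate 2 of both genotypes stood apart by 8 fibroblast and meningeal markers, at 179 FPKM in Nmd-/- and 145 FPKM in Nmd+/+, while the other 4 libraries held at most 4.43 FPKM. In such bulk cultures, fewer cells of a type and less RNA per cell cannot be told apart.

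The promoters of Abt1 and Ruvbl1 are shown as those of the partners described first below. Both windows lie just outside the gene as GENCODE M21 gives it, while the window of Ruvbl2, the other Ruvbl gene, lies inside its gene. Each line gives the 250 bases before the RefSeq start, 5′ to 3′, on build GRCm38.p6, with motif matches on either strand in capitals. The Abt1 window is chr13:23423867-23424116 on the minus strand and the Ruvbl1 window is chr6:88465159-88465408 on the plus strand.
Abt1: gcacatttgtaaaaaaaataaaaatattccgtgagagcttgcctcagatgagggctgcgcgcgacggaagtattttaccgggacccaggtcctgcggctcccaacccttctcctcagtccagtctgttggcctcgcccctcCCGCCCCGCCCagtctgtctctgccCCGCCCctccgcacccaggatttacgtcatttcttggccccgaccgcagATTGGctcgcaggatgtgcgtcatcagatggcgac
Ruvbl1: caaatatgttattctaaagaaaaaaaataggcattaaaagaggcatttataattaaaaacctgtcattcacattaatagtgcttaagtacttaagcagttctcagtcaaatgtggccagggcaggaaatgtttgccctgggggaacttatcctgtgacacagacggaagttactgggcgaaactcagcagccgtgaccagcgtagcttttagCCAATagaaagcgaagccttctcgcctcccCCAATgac
The Abt1 window had 3 matches to the GC box GGGCGG, 2 of which overlap, and 1 to the CCAAT box, while the Ruvbl1 window had 2 CCAAT boxes and no GC box. The G and C content was 58.8% for Abt1 and 42.4% for Ruvbl1, beside a median of 52.4% over all windows.

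All 9 genes had a window in the RefSeq table. GGGCGG was found in 4 of them (Abt1, Ruvbl2, Gtf3c1 and Gtf3c4) and in 32.74% of the 32851 windows of that length. CCAAT was found in 5 (Abt1, Ruvbl1, Ruvbl2, Gtf3c1 and Gtf3c5) and in 33.85% of all windows. The Ets motif CCGGAAG was found in Gtf3c1, Gtf3c2 and Gtf3c6 and in 6.91% of all windows. Gtf3c1 also held the cAMP response element TGACGTCA, present in 1.55% of windows, and Gtf3c6 the E-box CACGTG, present in 6.02%. Such a match describes the letters of the window and shows no binding.

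Abt1 (ENSMUSG00000036376, GRCm38 chromosome 13, 23421539 to 23423866, minus strand) measured 11.02, 10.23 and 10.84 FPKM in Nmd-/- replicates 1, 2 and 3, against 10.53, 10.60 and 8.30 FPKM in Nmd+/+. The groups overlapped, and Nmd+/+ replicate 3 was the lowest library. The mean was 10.7 ± 0.410 FPKM in Nmd-/- and 9.81 ± 1.31 FPKM in Nmd+/+ (SD, n = 3 each). The difference of 0.12 on the log2(FPKM + 1) scale (95% interval -0.20 to 0.44) did not pass the test, with an adjusted p of 0.9997 in limma and p = 0.4 in the exact permutation test. Within pairs of libraries that carry the same replicate number it was 0.060, -0.046 and 0.35. Without Nmd+/+ replicate 3 it was 0.016, and with sample quality weights 0.24. Tbp, the TATA-binding protein that Abt1 binds, averaged 39.5 ± 2.44 FPKM in Nmd-/- and 39.6 ± 3.68 FPKM in Nmd+/+ (SD, n = 3 each).

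Ruvbl1 (pontin; ENSMUSG00000030079, chromosome 6, 88465409 to 88497572, plus strand) measured 12.6, 13.0 and 14.0 FPKM in Nmd-/- replicates 1, 2 and 3, against 13.1, 14.5 and 10.6 FPKM in Nmd+/+. The Nmd-/- values lay inside the range of the Nmd+/+ values, whose replicate 3 was again the lowest library. The mean was 13.2 ± 0.711 FPKM in Nmd-/- and 12.7 ± 1.95 FPKM in Nmd+/+ (SD, n = 3 each), a difference of 0.058 on the log2(FPKM + 1) scale (95% interval -0.28 to 0.40), with an adjusted p of 0.9997 in limma. This direction rests on replicate 3 of Nmd+/+, without which the difference was -0.057.

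Ruvbl2 (reptin; ENSMUSG00000003868, chromosome 7, 45421852 to 45438096, minus strand) measured 24.8, 25.9 and 22.8 FPKM in Nmd-/- replicates 1, 2 and 3, against 25.2, 23.4 and 18.3 FPKM in Nmd+/+. The groups overlapped, and in both genotypes replicate 3 was the lowest. The mean was 24.5 ± 1.57 FPKM in Nmd-/- and 22.3 ± 3.62 FPKM in Nmd+/+ (SD, n = 3 each), a difference of 0.14 on the log2(FPKM + 1) scale (95% interval -0.22 to 0.50), with an adjusted p of 0.9997 in limma. Without Nmd+/+ replicate 3 it was 0.0082. Ruvbl2 overlaps Gys1 on the other strand by 3253 bases, and Gys1 was at 6.95 to 10.0 FPKM, so the 2 could share reads if strand was not used.

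The ring holds Ruvbl1 and Ruvbl2 proteins together, and their transcripts were compared within each library, where no scaling is needed. The ratio of Ruvbl2 to Ruvbl1 FPKM was 1.96, 1.99 and 1.63 in Nmd-/- replicates 1, 2 and 3, against 1.92, 1.62 and 1.72 in Nmd+/+. All 6 libraries held more Ruvbl2 than Ruvbl1 per length, and the genotypes overlapped. The mean ratio was 1.86 ± 0.202 in Nmd-/- and 1.75 ± 0.155 in Nmd+/+ (SD, n = 3 each), with p = 0.5 in the exact two-sided permutation test of the log2 ratio.

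**Figure D1:**
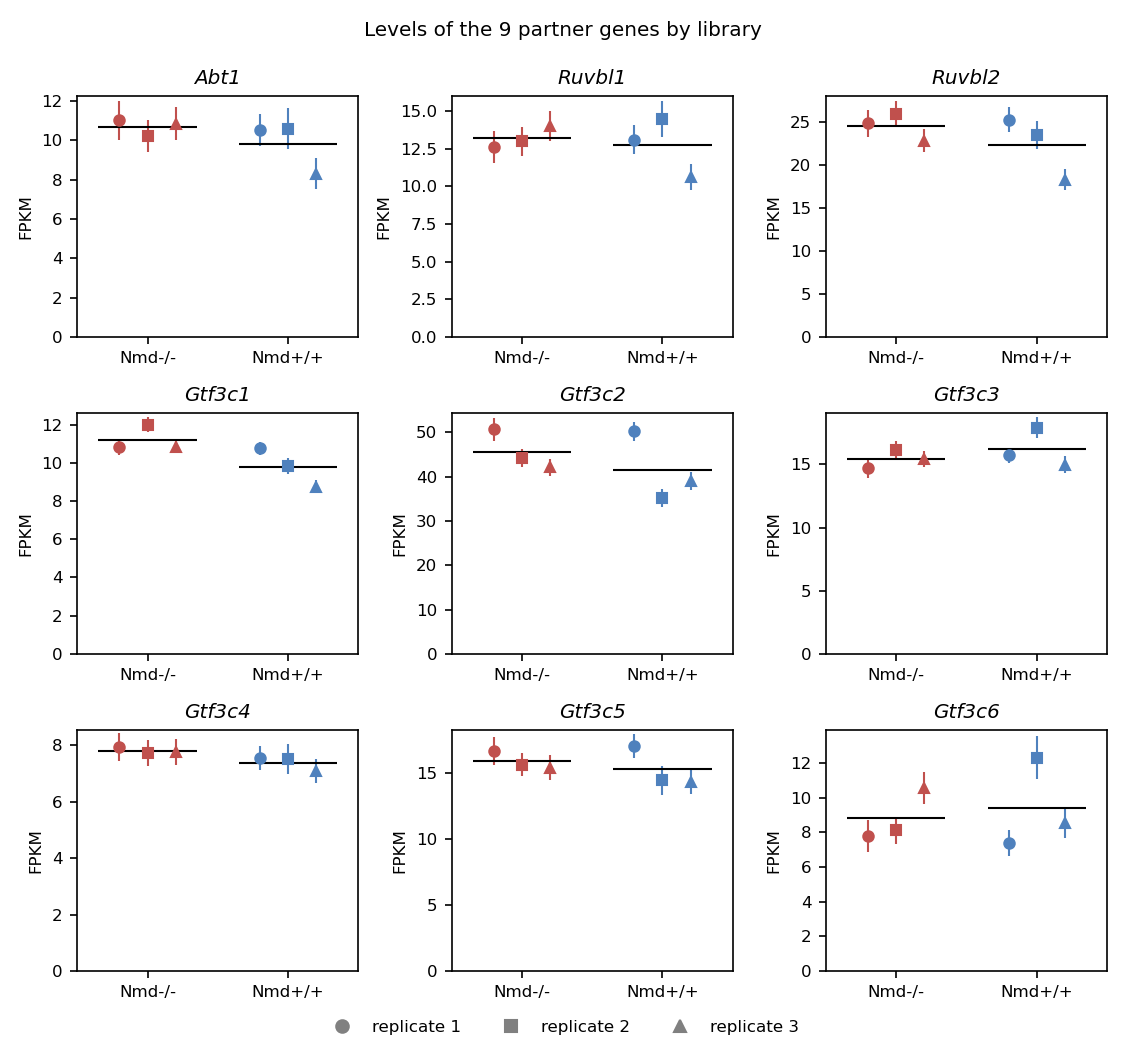
FPKM of the 9 partner genes in each library, with Nmd-/- left of Nmd+/+. Points are libraries marked by replicate number and thin bars are the 95% intervals deposited with the values. The genotypes overlap for 7 genes and separate for Gtf3c1 and Gtf3c4 by 0.0450 and 0.182 FPKM.

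Among the TFIIIC subunits, Gtf3c1 (ENSMUSG00000032777, chromosome 7, 125640955 to 125707780, minus strand) encodes the largest, which in human cells contacts the B box of tRNA genes and has been reported to bind Ighmbp2. It measured 10.81, 12.00 and 10.84 FPKM in Nmd-/- replicates 1, 2 and 3, against 10.76, 9.84 and 8.74 FPKM in Nmd+/+. Every Nmd-/- library was above every Nmd+/+ library, but the gap was 0.0450 FPKM, and the deposited 95% interval of Nmd-/- replicate 1 (10.4 to 11.2 FPKM) covered the value of Nmd+/+ replicate 1. The mean was 11.2 ± 0.680 FPKM in Nmd-/- and 9.78 ± 1.01 FPKM in Nmd+/+ (SD, n = 3 each), a ratio of 1.15. The difference of 0.18 on the log2(FPKM + 1) scale (SE 0.13, 95% interval -0.12 to 0.49) did not pass the test, with an adjusted p of 0.9997 and an unadjusted p of 0.197 in limma. Within pairs it was 0.0055, 0.26 and 0.28, so pair 1 showed almost none of it.

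Gtf3c4 (ENSMUSG00000035666, chromosome 2, 28822299 to 28840360, minus strand), a subunit reported in human cells to have histone acetyltransferase activity, measured 7.93, 7.73 and 7.76 FPKM in Nmd-/- replicates 1, 2 and 3, against 7.55, 7.51 and 7.09 FPKM in Nmd+/+. These groups did not overlap either, with a gap of 0.182 FPKM, and the deposited intervals overlapped in all 3 pairs. The mean was 7.81 ± 0.109 FPKM in Nmd-/- and 7.38 ± 0.258 FPKM in Nmd+/+ (SD, n = 3 each), a difference of 0.071 on the log2(FPKM + 1) scale (95% interval -0.19 to 0.34), with an adjusted p of 0.9997 in limma. For Gtf3c1 and Gtf3c4 the exact permutation test gave p = 0.1, the smallest it allows. Gtf3c4 was the steadiest of the 9 genes, with a coefficient of variation of 3.84% over the 6 libraries.

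The genotypes also stayed apart for these 2 subunits after median-of-ratios scaling, with Gtf3c1 at 10.6 to 11.8 in Nmd-/- and 9.11 to 10.5 in Nmd+/+, and Gtf3c4 at 7.615 to 7.782 in Nmd-/- and 7.369 to 7.501 in Nmd+/+ on that scale. Groups without overlap and higher in Nmd-/- were found for 2 of the 9 genes and for 1.76% of the 14611 genes tested. None of the 9 was lower without overlap, a pattern that 0.91% of all tested genes had.

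Gtf3c2 (ENSMUSG00000029144, chromosome 5, 31151142 to 31180144, minus strand) encodes the subunit that in human TFIIIC joins Gtf3c1 in the part that holds the B box. It measured 50.6, 44.2 and 42.1 FPKM in Nmd-/- replicates 1, 2 and 3, against 50.2, 35.2 and 39.0 FPKM in Nmd+/+. Replicate 1 was highest in both genotypes and the groups overlapped, with means of 45.6 ± 4.46 FPKM in Nmd-/- and 41.5 ± 7.83 FPKM in Nmd+/+ (SD, n = 3 each). The difference was 0.15 on the log2(FPKM + 1) scale (95% interval -0.24 to 0.53), with an adjusted p of 0.9997 in limma. Leaving out Nmd+/+ replicate 2 gave 0.038, and leaving out Nmd+/+ replicate 1 gave 0.29. The level itself is uncertain: the gene as the files define it overlaps Mpv17, at 23.1 to 27.9 FPKM, by 7012 bases, and GENCODE M21 has on the same strand a shorter Gtf3c2 from 31156005 and a readthrough gene, Gm29609.

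Gtf3c3 (ENSMUSG00000041303, chromosome 1, 54397581 to 54438971, minus strand), whose product contacts TFIIIB, measured 14.7, 16.2 and 15.4 FPKM in Nmd-/- replicates 1, 2 and 3, against 15.7, 17.9 and 15.0 FPKM in Nmd+/+. The groups overlapped, with replicate 2 highest in both genotypes, and the difference was -0.063 on the log2(FPKM + 1) scale (95% interval -0.36 to 0.23). Gtf3c5 (ENSMUSG00000026816, chromosome 2, 28566311 to 28583751, minus strand), a DNA-binding subunit, measured 16.7, 15.6 and 15.4 FPKM in Nmd-/- replicates 1, 2 and 3, against 17.0, 14.5 and 14.3 FPKM in Nmd+/+. Replicate 1 was highest in both genotypes and the groups overlapped, with a difference of 0.058 (95% interval -0.24 to 0.35). An antisense gene inside Gtf3c5, Gm13381, reached at most 0.0445 FPKM.

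Gtf3c6 (ENSMUSG00000019837, chromosome 10, 40249203 to 40257665, minus strand), the smallest subunit, measured 7.79, 8.10 and 10.6 FPKM in Nmd-/- replicates 1, 2 and 3, against 7.37, 12.3 and 8.52 FPKM in Nmd+/+. The groups overlapped, and 1 Nmd+/+ library, replicate 2, was above all others. Its coefficient of variation of 21.1% was the widest of the 9 genes. The difference was -0.066 on the log2(FPKM + 1) scale (95% interval -0.55 to 0.41), and 0.13 without Nmd+/+ replicate 2. For Gtf3c3, Gtf3c5 and Gtf3c6 the adjusted p was 0.9997 in limma, and the exact permutation test gave p = 0.6, 0.6 and 0.7 in that order.

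Per length, Gtf3c2 was the most abundant subunit in all 6 libraries; Gtf3c4 was the least by its mean, but Gtf3c6 lay below it in replicate 1 of both genotypes. The 6 subunits summed to 104.8 ± 3.34 FPKM in Nmd-/- and 99.5 ± 8.25 FPKM in Nmd+/+ (SD, n = 3 each). Gtf3c2 took 43.5 ± 2.83% of that sum in Nmd-/- and 41.5 ± 5.05% in Nmd+/+, with the limit on its gene model given above. Gtf3c1 took 10.7 ± 0.806% in Nmd-/- and 9.82 ± 0.355% in Nmd+/+, and Gtf3c6 8.44 ± 1.68% in Nmd-/- and 9.54 ± 2.95% in Nmd+/+. With Gtf3c2 set aside, Gtf3c1 made up 19.0 ± 1.06% of the other 5 in Nmd-/- and 16.9 ± 1.37% in Nmd+/+, where the single values overlapped.

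**Figure D2:**
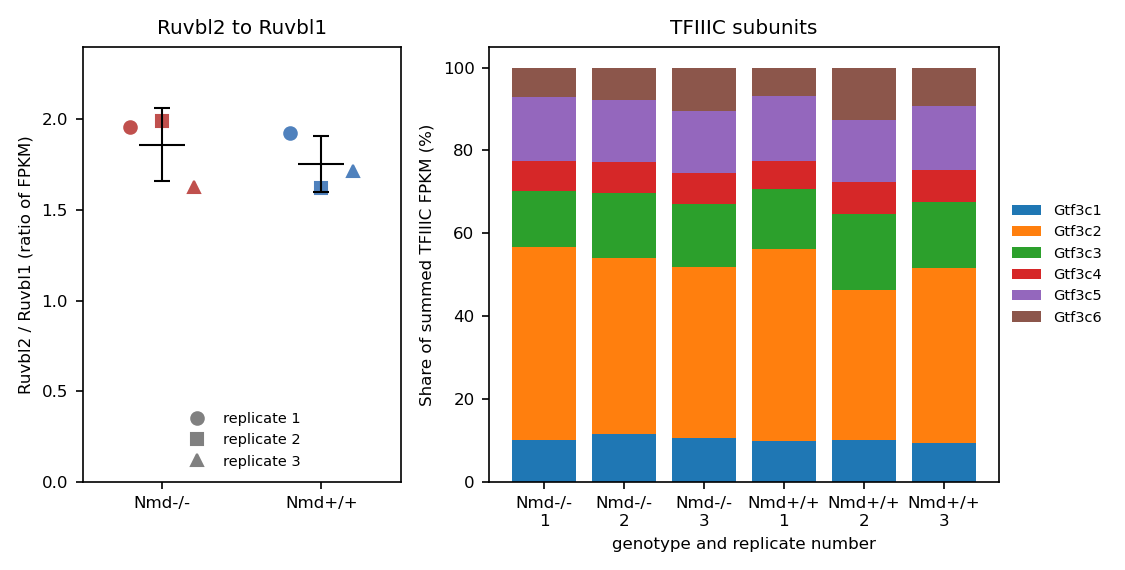
Left, ratio of Ruvbl2 to Ruvbl1 FPKM per library with Nmd-/- left of Nmd+/+, at 1.63 to 1.99 in Nmd-/- and 1.62 to 1.92 in Nmd+/+. Right, share of each subunit in the summed TFIIIC FPKM (%), 1 bar per library, where Gtf3c2 is the widest band in all 6.

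Over the 6 libraries the order of levels was Gtf3c2 (43.5 ± 6.14 FPKM), Ruvbl2 (23.4 ± 2.77), Gtf3c3 (15.8 ± 1.16), Gtf3c5 (15.6 ± 1.11), Ruvbl1 (13.0 ± 1.34), Gtf3c1 (10.5 ± 1.10), Abt1 (10.3 ± 0.994), Gtf3c6 (9.11 ± 1.92) and Gtf3c4 (7.60 ± 0.291; SD, n = 6 for each). Only Gtf3c2 over Ruvbl2 and Ruvbl2 over Gtf3c3 were steps whose ranges did not overlap. Gtf3c3 was above Gtf3c5 in 4 of 6 libraries, and Gtf3c1 above Abt1 likewise in 4. Within a library each of the 9 genes was at least 5.13 times as high as Ighmbp2 per length, the lowest being Gtf3c6 in Nmd+/+ replicate 1. Gtf3c2, with the limit on its gene model given above, was up to 70.4 times as high. That value came from Nmd-/- replicate 3, the library where Ighmbp2 was lowest, so the range mixes the genotypes.

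All 9 genes passed the filter on low values. By their means 7 were higher and 2 lower in Nmd-/-, while 56.0% of all tested genes were higher. After median-of-ratios scaling 7 were above 0, beside 48.7% of all tested genes. None of the 9 passed an adjusted p of 0.05 in limma (background 0.0% of 14611 genes), none had an unadjusted p under 0.05 (65 of all tested genes had, 0.445%), and the replicate block changed neither count for the 9 (with it, 0 of all tested genes passed the adjusted threshold and 711 the unadjusted one, 4.87%). The median difference was 0.071 over the 9 genes and 0.017 over all tested genes on the log2(FPKM + 1) scale, and without its sign it was 0.071 over the 9 and 0.081 over all. The 95% intervals ran at their widest from a ratio of 0.685 (Gtf3c6) to one of 1.45 (Gtf3c2) on the FPKM + 1 scale, and each interval included no change.

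**Figure D3:**
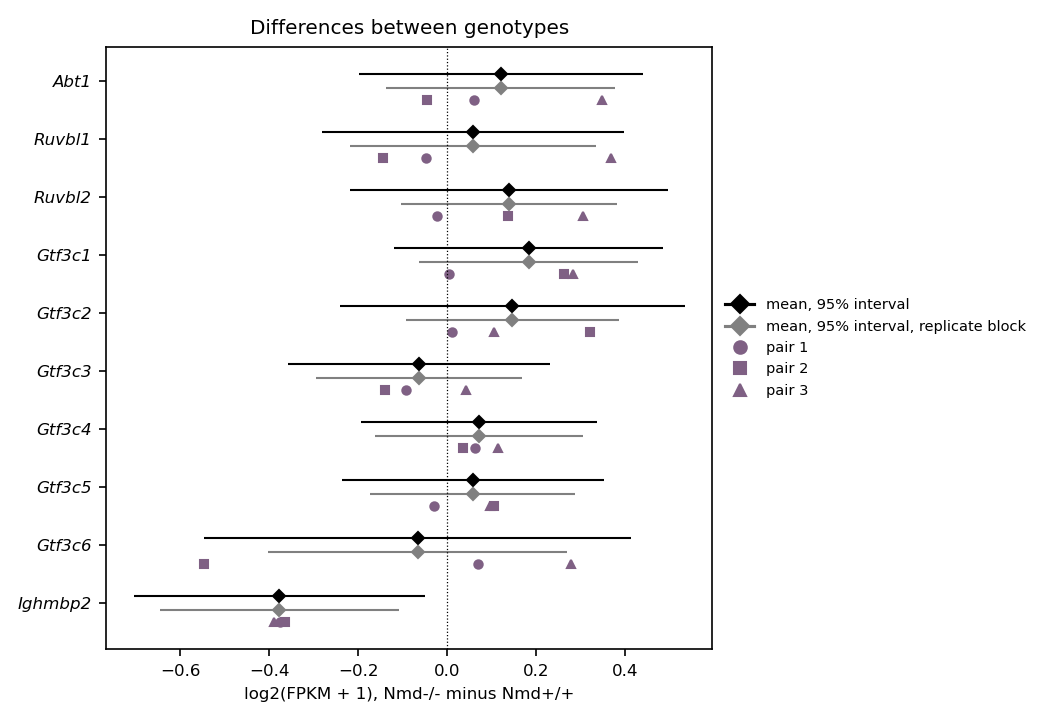
Difference in log2(FPKM + 1), Nmd-/- minus Nmd+/+, for each partner gene and, in the bottom row, Ighmbp2. Diamonds with bars are means with 95% intervals, in black without and in grey with the replicate block. Small symbols are the 3 same-numbered pairs. All intervals of the 9 partner genes cross 0, and in pair 3 all 9 are above 0. The intervals of Ighmbp2 lie below 0, at -0.70 to -0.050 without and -0.65 to -0.11 with the block. Ighmbp2 passed the filter on low values only through Nmd+/+.

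The difference varied between the same-numbered pairs. In pair 1, 5 of the 9 genes were higher in Nmd-/- (49.4% of all tested genes), in pair 2 also 5 (52.7%) and in pair 3 all 9 (57.5%). The median of the 9 genes was 0.0055, 0.037 and 0.28 in pairs 1, 2 and 3, and that of all tested genes was -0.0014, 0.016 and 0.045. Gtf3c1, Gtf3c2 and Gtf3c4 were higher in all 3 pairs, as were 14.9% of all tested genes, and none of the 9 was lower in all 3 (10.6% of all tested genes). The deposited intervals of the paired libraries overlapped in 18 of 27 comparisons. The same share over all tested genes was not computed, so this count shows nothing particular to the 9 genes.

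Nmd+/+ replicate 3 was the lowest library for 6 of the 9 genes, and for 28.6% of all tested genes. The same library had the lowest sum of 10 markers of dividing cells, although Top2a and Ccnb1 among them were lowest in Nmd+/+ replicate 1: the sums were 567, 626 and 687 FPKM in Nmd-/- replicates 1, 2 and 3, against 541, 706 and 470 FPKM in Nmd+/+. By their means 9 of these 10 markers were higher in Nmd-/-, beside 56.0% of all tested genes, and none passed the test. Their median differences were 0.060, -0.053 and 0.56 in pairs 1, 2 and 3, so the count rests largely on pair 3. Nmd+/+ replicate 3 also had the lowest radial glia and astrocyte sum, 3190 FPKM, of which Vim alone made 2380 FPKM. The list was not uniform there: Vim, Nes and Pax6 were lowest in that library, Fabp7 and Gfap were highest, and the other markers were neither. The motoneuron sum was highest in Nmd+/+ replicate 3, at 35.0 FPKM, most of it from Gfra1 and Nefh. The part of these cell types in the differences of the partner genes was not tested. With Nmd+/+ replicate 3 left out, 6 of the 9 genes were above 0 and their median was 0.016; with replicate 2 of both genotypes left out, 8 were above 0 with a median of 0.14. Replicate number held a median of 43.2% of the sum of squares of the 9 genes and genotype 15.9%, beside 73.2% and 5.23% over all tested genes. Replicate number has more levels than genotype and takes a larger share even where neither has an effect. The shares of the 9 genes therefore do not show an effect of either.

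The profiles of Abt1, Ruvbl1 and Ruvbl2 over the 6 libraries were set against those of 10462 genes with a mean of at least 5 FPKM, by the root mean square distance between their centred log2(FPKM + 1) values. Nearest to Abt1 were Gins1 (0.0282), a DNA replication factor, Gart (0.0303), an enzyme of purine synthesis, and Sf3b3 (0.0330), a splicing factor. Nearest to Ruvbl1 were Gstm1 (0.0276), a glutathione transferase, Zfp143 (0.0334) and Rfwd3 (0.0354). Nearest to Ruvbl2 were Mapk1ip1l (0.0222), Smad4 (0.0292), a mediator of TGF-β signals, and Isg20l2 (0.0336). The median distance was 0.205 for Abt1, 0.208 for Ruvbl1 and 0.220 for Ruvbl2.

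The genes around the partners were counted next, in lists of their complexes. For all these counts the background was 56.0% of all tested genes higher in Nmd-/-, and 48.7% after median-of-ratios scaling. Of 18 subunits of RNA polymerase III, the enzyme that TFIIIC recruits, 12 were higher and 6 lower by their means in Nmd-/-. After median-of-ratios scaling 11 were higher. The median difference was 0.051 on the log2(FPKM + 1) scale, with none past the test. Polr3gl, a subunit with a close relative in Polr3g, measured 4.59, 5.20 and 4.78 FPKM in Nmd-/- replicates 1, 2 and 3, against 5.19, 5.89 and 6.35 FPKM in Nmd+/+. It was lower in Nmd-/- in all 3 pairs while the groups just overlapped, with a difference of -0.22 and an unadjusted p of 0.136 in limma. Crcp averaged 15.2 ± 1.73 FPKM in Nmd-/- and 17.5 ± 1.03 FPKM in Nmd+/+. Polr1d, shared with RNA polymerase I, averaged 71.6 ± 19.9 FPKM in Nmd-/- and 66.0 ± 19.7 FPKM in Nmd+/+ (SD, n = 3 each).

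Of 11 genes for TFIIIA, TFIIIB, the snRNA-activating complex SNAPc and Maf1, 6 were higher and 5 lower in Nmd-/-, with a median of 0.032 and none past the test. Snapc3 averaged 10.7 ± 1.73 FPKM in Nmd-/- and 12.4 ± 1.89 FPKM in Nmd+/+ (SD, n = 3 each). Snapc1 averaged 6.85 ± 0.962 FPKM in Nmd-/- and 7.92 ± 1.43 FPKM in Nmd+/+. Maf1, a repressor of RNA polymerase III, averaged 41.3 ± 6.49 FPKM in Nmd-/- and 38.6 ± 10.0 FPKM in Nmd+/+.

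Of 10 RNAs made by RNA polymerase III that were looked for, 7 had a single entry in the files and 2 passed the filter on low values. Rn7sk, which holds back the elongation factor P-TEFb, measured 50.9, 22.1 and 23.8 FPKM in Nmd-/- replicates 1, 2 and 3, against 56.1, 14.5 and 29.0 FPKM in Nmd+/+. Rmrp, the RNA of an RNase that processes ribosomal RNA, measured 4.51, 1.55 and 1.10 FPKM in Nmd-/- replicates 1, 2 and 3, against 4.38, 0.347 and 1.05 FPKM in Nmd+/+. Both were highest in replicate 1 of either genotype, and the genotypes overlapped. Rpph1 and Rny1 did not reach the filter, Rny3 and Vaultrc5 were above 0 in Nmd+/+ replicate 1 alone, and n-R5s1 was listed at 0 in all 6 libraries. Whether the libraries captured these RNAs evenly was not tested, so the values are no measure of RNA polymerase III output.

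Of 14 tested genes of the assembly factors that use the Ruvbl ring (the R2TP and TTT complexes and snoRNP assembly), 7 were higher and 7 lower in Nmd-/-, with a median of 0.024. Pih1d1, the R2TP subunit that binds clients, averaged 25.5 ± 2.31 FPKM in Nmd-/- and 23.0 ± 2.97 FPKM in Nmd+/+ (SD, n = 3 each). Wdr92 averaged 6.51 ± 1.01 FPKM in Nmd-/- and 5.52 ± 1.26 FPKM in Nmd+/+ (SD, n = 3 each). Pdrg1, the highest of the list, averaged 47.5 ± 0.261 FPKM in Nmd-/- and 48.2 ± 3.56 FPKM in Nmd+/+. None passed the test.

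The chromatin complexes that contain the ring gave 11 of 18 genes higher and 7 lower for INO80 and SRCAP (median 0.011), a split that turned to 7 higher after median-of-ratios scaling. For TIP60, 9 of 12 were higher and 3 lower (median 0.048), with 8 higher after that scaling. Ing3, a TIP60 subunit that reads histone methylation, measured 12.4, 12.0 and 13.3 FPKM in Nmd-/- replicates 1, 2 and 3, against 11.8, 8.54 and 9.75 FPKM in Nmd+/+. All Nmd-/- values were above all Nmd+/+ values, as in 1.76% of all tested genes. The difference of 0.31 had an unadjusted p of 0.0735 and an adjusted p of 0.9997 in limma. Actr6 of SRCAP measured 4.58, 6.30 and 7.68 FPKM in Nmd-/- replicates 1, 2 and 3, against 4.77, 10.3 and 10.6 FPKM in Nmd+/+, lower in Nmd-/- in all 3 pairs with groups that overlapped. With the replicate block, Ing3 and Actr6 had unadjusted p-values of 0.0249 and 0.0185 in limma, beside 4.87% of all tested genes under 0.05, and both adjusted p-values were 0.9903. Nfrkb of INO80 averaged 6.38 ± 0.635 FPKM in Nmd-/- and 5.44 ± 0.804 FPKM in Nmd+/+. Znhit1 averaged 59.6 ± 7.49 FPKM in Nmd-/- and 59.3 ± 8.04 FPKM in Nmd+/+. Morf4l2 of TIP60 averaged 330.7 ± 19.2 FPKM in Nmd-/- and 301.2 ± 33.9 FPKM in Nmd+/+ (SD, n = 3 each).

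Of the 10 proteins of box C/D and H/ACA snoRNPs, particles that guide the modification of ribosomal RNA and that the Ruvbl ring helps to build, 4 were higher and 6 lower in Nmd-/- (median -0.024), and none passed the test. After median-of-ratios scaling 3 were higher. Their pair medians were 0.0069, -0.25 and 0.18, so pairs 2 and 3 pointed in opposite directions. Nhp2 averaged 45.7 ± 8.19 FPKM in Nmd-/- and 41.6 ± 11.9 FPKM in Nmd+/+. Nhp2l1, the highest of the list, averaged 107.7 ± 6.47 FPKM in Nmd-/- and 111.8 ± 7.003 FPKM in Nmd+/+ (SD, n = 3 each). Shq1 was low, at 1.36 ± 0.110 FPKM in Nmd-/- and 1.57 ± 0.214 FPKM in Nmd+/+.

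Of 43 genes of the small subunit processome, the particle in which the yeast relative of Abt1 acts, 32 were higher and 11 lower in Nmd-/-, with a median of 0.030 and none past the test. After median-of-ratios scaling 27 were higher, and the pair medians were 0.086, -0.14 and 0.23. Pwp2 measured 2.19, 2.05 and 1.85 FPKM in Nmd-/- replicates 1, 2 and 3, against 1.79, 1.75 and 1.44 FPKM in Nmd+/+. All its Nmd-/- values were above all its Nmd+/+ values, as in 1.76% of all tested genes. Its difference of 0.19 had an unadjusted p of 0.191 in limma. Rcl1 averaged 7.95 ± 0.803 FPKM in Nmd-/- and 6.96 ± 0.879 FPKM in Nmd+/+. Emg1, a methyltransferase of ribosomal RNA, averaged 56.8 ± 1.98 FPKM in Nmd-/- and 53.3 ± 8.93 FPKM in Nmd+/+ (SD, n = 3 each).

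**Figure D4:**
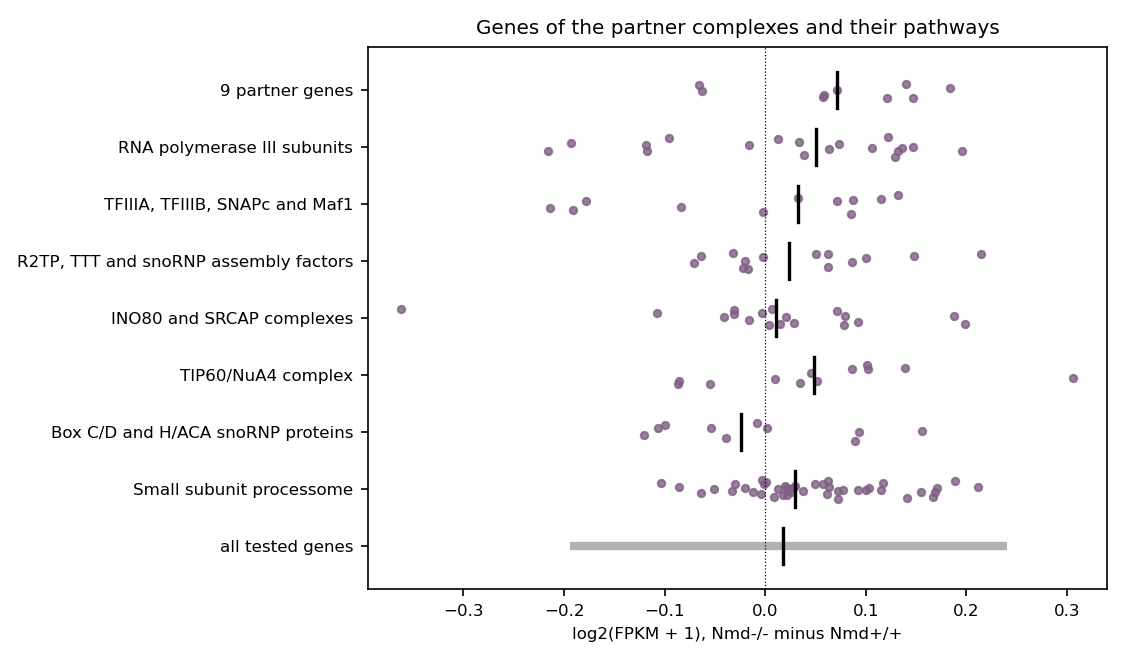
Difference in log2(FPKM + 1), Nmd-/- minus Nmd+/+, of each tested gene in the lists of the partner complexes and their pathways, 1 point per gene. The lists straddle 0, with medians between -0.024 for the snoRNP proteins and 0.051 for the RNA polymerase III subunits among lists of 10 genes or more.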

How the data were processed

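The authors deposited FPKM per gene, 1 table per library, made with Cufflinks per the file headers, each with a 95% interval and a status. Named in the submitters' processing notes are GRCm38, Cufflinks 2.2.1, SAMtools 1.3, cutadapt 1.8, Trim Galore 0.4.0 and FastQC 0.10.1. Not given in the sources used here are the aligner's version, the annotation release and the use of strand. FPKM are relative to each library's own total.

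In R 4.3.3, limma 3.58.1 with an intensity trend was fitted to log2(FPKM + 1), Nmd-/- minus Nmd+/+, over 14611 genes with a mean of at least 1 FPKM and an accepted status in every library (35 genes had a failed status). Fold changes on this scale understate those of low genes. P-values are two-sided, with Benjamini-Hochberg adjustment over all tested genes and a threshold of 0.05. Exact permutation tests were run in SciPy 1.17.1. The fit was tested on simulated data.

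Deviations of same-numbered libraries from their genotype means correlated across genes at 0.82, 0.70 and 0.39 for numbers 1, 2 and 3. Between different numbers the correlations ran from -0.81 (Nmd-/- 1 with Nmd+/+ 2) to 0.28 (Nmd-/- 1 with Nmd+/+ 3), so number 3 stood out least. These values are tied to each other, as deviations from a group's mean cancel out. Only the values, and no label, show a pairing by number, so the replicate block was an alternative.

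The members and lists were chosen with earlier results of these data known. Named were the 9 genes, Ighmbp2, in each list the 2 genes of smallest unadjusted p and the 1 of highest mean, and 3 nearest profiles for Abt1 and the Ruvbl genes. Tbp, the marker genes and the Pol III RNAs below the filter were named beyond this rule, after their values were seen. Further alternatives used a pseudocount of 0.1, no filter or a mean of 5 FPKM, median-of-ratios and quantile scaling, no trend, quality weights, and libraries left out. Nopchap1 was not found, and Srcap, with 2 gene IDs, was not used.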

Additional observations from a re-analysis of the deposited data

How the results depend on the processing

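Under the 17 alternatives none of the 9 partner genes passed an adjusted p of 0.05, and 8 of 153 recomputed differences turned sign, all in Ruvbl1, Gtf3c3 or Gtf3c6. With the replicate block no call changed: the count of genes past the threshold stayed 0, with a lowest adjusted p of 0.0740, and the Ruvbl ratio had p = 0.75 in an exact sign-flip test, whose smallest p is 0.25. All differences are in log2(FPKM + 1) unless stated, and the causes of the turns were not tested.

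Leaving out 1 library at a time gave -0.057 to 0.15 for Ruvbl1, -0.12 to 0.0076 for Gtf3c3, -0.21 to 0.13 for Gtf3c6, -0.093 to 0.35 for Polr1d, -0.081 to 0.29 for Maf1, -0.074 to 0.031 for Pdrg1, -0.091 to 0.11 for Znhit1, -0.030 to 0.21 for Emg1, -0.10 to 0.90 for Rmrp and -0.42 to 0.52 for Rn7sk. The partner genes that kept their sign moved too, at 0.016 to 0.18 for Abt1, 0.0082 to 0.23 for Ruvbl2, 0.11 to 0.25 for Gtf3c1, 0.038 to 0.29 for Gtf3c2, 0.046 to 0.086 for Gtf3c4 and 0.017 to 0.13 for Gtf3c5, so their order by size is not fixed. With quality weights Gtf3c3 stood at 0.0035, Gtf3c6 at 0.14, Maf1 at -0.0061, Znhit1 at -0.0090, Nhp2l1 at 0.015 and Rn7sk at -0.21. Znhit1 was -0.017 with median-of-ratios scaling, alone or with the block, and -0.0028 with quantile normalization. Without replicate 2 of both genotypes Gtf3c6 was 0.17, Maf1 -0.021, Nhp2l1 0.046, Rn7sk -0.21 and the log2 ratio of Ruvbl1 to Ruvbl2 0.025, against -0.083 with all libraries. Without replicate 3 of both genotypes, an alternative chosen after seeing the data, Ruvbl1 was -0.097, Pdrg1 0.030 and Emg1 -0.042. Of 119 recomputed list medians, 25 moved by more than 1 SD of the pair medians. Each value of a partner gene rests on 282 to 4065 fragment equivalents, and the smallest detectable change was not measured.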
